A study of Mus musculus with 6 samples.

Results

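The miR-130, miR-301 and miR-721 family is a group of miRNAs whose 3p arms (miR-721 has no arm suffix in its name) carry a common seed, the stretch from base 2 to base 8 through which a miRNA pairs with its target mRNAs. Its members were taken by name from the miRNA probes of the array, where they are listed as mmu-miR-130a-3p, mmu-miR-301a-3p, mmu-miR-721 and so on, and 9 of the 1247 mouse miRNAs matched. Of these, 5 were miR-130a-3p, miR-130b-3p, miR-301a-3p, miR-301b-3p and miR-721, and the other 4 were the 5p arms of the miR-130a, miR-130b, miR-301a and miR-301b hairpins. The family was chosen by its signals on these same arrays, corn oil against CCl4, so the differences of its members between the groups are given as a description without a test.

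The arrays measured total liver RNA of 6 male C57BL/6 mice, with 1 single-color (Cy3) array per liver. The 3 mice of the CCl4 group were 7 weeks old at the start and received carbon tetrachloride, a solvent that injures hepatocytes and causes fibrosis, at 0.6 mL/kg in corn oil by intraperitoneal injection 2 times a week for 10 weeks. The 3 control mice, of the same strain, sex and age, were injected with an equal volume of corn oil on the same schedule. The number of arrays limits the precision of every value.

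miRNAs repress mRNAs that contain a match to their seed, and miRNAs that share a seed can act on overlapping sets of targets. The miR-130 seed is known for repression of Pparg, which encodes a nuclear receptor of fat cell differentiation that is also present in quiescent hepatic stellate cells and is lost as these become collagen-producing myofibroblasts. A hairpin gives a 5p and a 3p arm, of which usually 1 accumulates, and in this family that is the 3p arm.

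Among 1738 mature mouse miRNAs in the RefSeq table (GRCm38.p6), 7 carried the seed of miR-130a-3p, and all 7 were on the array. The table had no sequence for miR-301b-3p, so that member is not among the 7 and its seed was not checked. The sequences of the 4 family members that were detected are shown 5′ to 3′ because their shared seed defines the family, and the capitals mark bases 2 to 8.
miR-130a-3p: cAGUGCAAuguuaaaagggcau
miR-130b-3p: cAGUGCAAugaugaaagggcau
miR-301a-3p: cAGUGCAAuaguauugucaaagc
miR-721: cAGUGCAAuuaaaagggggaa

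miR-130a-3p and miR-130b-3p differed at 2 of 22 positions, both outside the seed, whereas miR-301a-3p and miR-721 shared the first 9 bases with miR-130a-3p. In GRCm38.p6, miR-130a-3p lies at chr2:84741116-84741137 on the minus strand, outside the span of any gene of the RefSeq table and between Ypel4 and Gm19426. miR-130b-3p lies at chr16:17124071-17124092 on the minus strand, where Mir130b and Mir301b are neighbors within the span of 2610318N02Rik. miR-301a-3p lies at chr11:87113054-87113076 on the plus strand, within the span of Ska2, a gene for a spindle and kinetochore protein. miR-721 lies at chr5:136375777-136375797 on the minus strand, within the span of Cux1, which encodes a homeobox transcription factor. The array design names another build, mm9, and its own coordinates were not used.

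The scanner software combines the signals of a miRNA's probes into a total signal, an intensity after background subtraction, and sets a flag where the miRNA counts as detected. For some weak miRNAs the total was lower than the sum of all their probes. For miR-301a-3p on CCl4 array 1 it was 8.50, the signal of 1 probe, against a sum of 11.04. It detected 193, 186 and 187 miRNAs on corn oil arrays 1, 2 and 3 and 245, 227 and 334 miRNAs on CCl4 arrays 1, 2 and 3. CCl4 replicate 3 stood apart from the other arrays. Its summed signal of detected miRNAs was 316413, against 167865 to 177351 on the other 5 arrays. Over the 166 miRNAs detected on all 6 arrays, Spearman's correlation of its total signals with those of the other arrays was 0.79 to 0.86, and among the other 5 arrays it was 0.87 to 0.99. Family values are therefore given with and without this array. The 6 arrays shared 1 slide, on which row 1 held the CCl4 livers and row 2 the corn oil livers, so row and treatment cannot be told apart.

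miR-130a-3p was the single member detected on all 6 arrays. Counting it, 4 members were detected on at least 1 array and 5 on none. Of the 9 members, 2 were detected on every corn oil array (miR-130a-3p and miR-721) and 2 on every CCl4 array (miR-130a-3p and miR-301a-3p). With over 50% of well above background spots as the criterion in place of the flag, miR-130a-3p was the single member left in either group. miR-301a-3p was detected on all CCl4 arrays and no corn oil array, as were 1.76% of the 1247 miRNAs. miR-721 had the opposite pattern, with detection in every corn oil liver and in no CCl4 liver. It was the only miRNA with this pattern, which gives a share of 0.0802%. Because the same contrast chose the family, nothing is read from these shares, nor from those of other miRNAs given with later results.

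**Figure D1:**
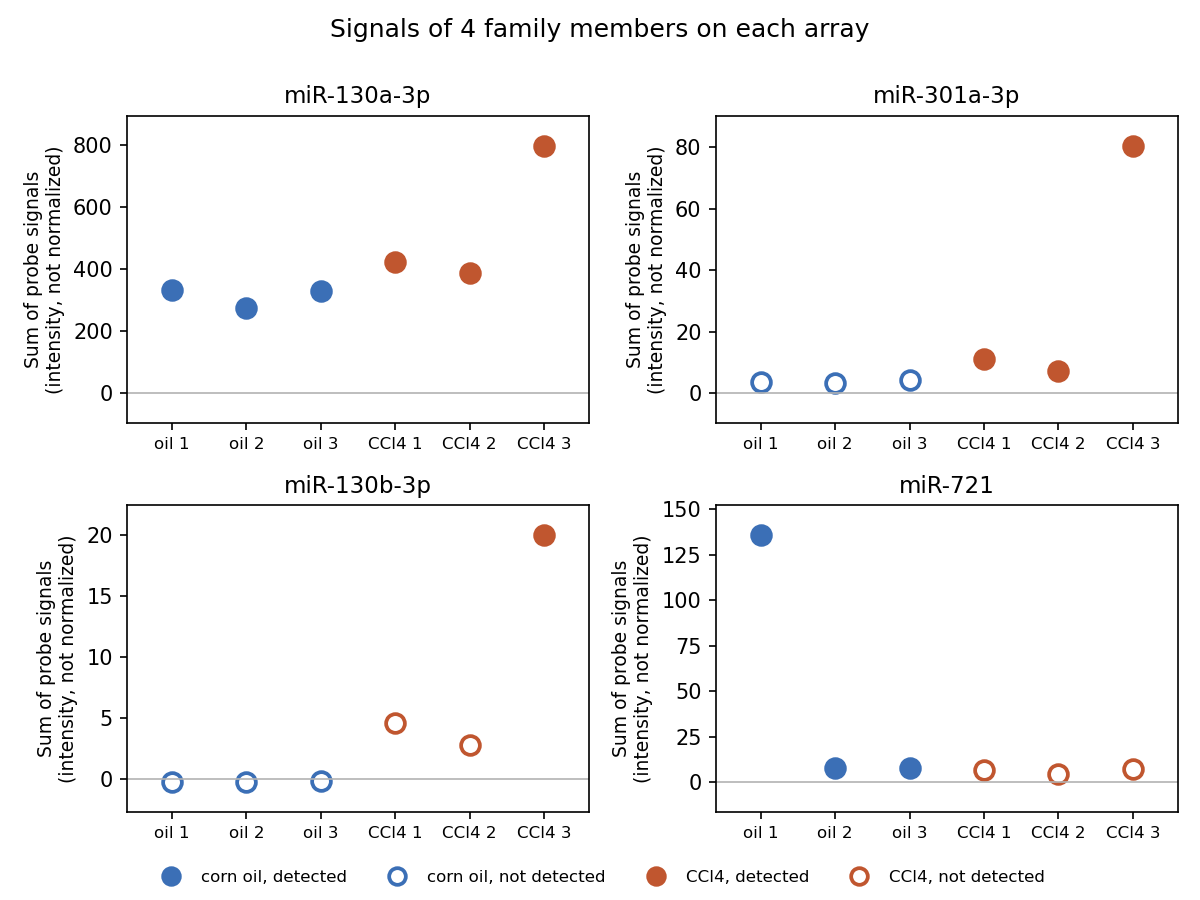
Sum of the probe signals (intensity, linear axis, not normalized) of 4 family members on each of the 3 corn oil (oil) and 3 CCl4 arrays, 1 point per array. Filled points were flagged as detected and open points were not; miR-130a-3p, miR-301a-3p and miR-130b-3p had their highest signal on CCl4 array 3, an order that quantile normalization and scaling to the 75th percentile of the 166 miRNAs detected on all arrays reversed for miR-130a-3p, and miR-721 on corn oil array 1.

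miR-130a-3p was the member with a signal on every array. Its total signal was 330, 273 and 328 in the corn oil livers and 422, 386 and 797 in the CCl4 livers, before any normalization. The lowest CCl4 array was above the highest corn oil array, and CCl4 replicate 3 was far above both other CCl4 arrays. In whole liver, fewer or more cells of a type and less or more RNA per cell cannot be told apart. The same separation, higher on every CCl4 array, was seen for 63.3% of the 166 miRNAs detected throughout. All 40 spots of miR-130a-3p were well above background on each array. Its 2 probes showed the same order of the groups. The first probe gave 129, 107 and 129 on corn oil and 167, 151 and 307 on CCl4, and the second gave 202, 167 and 199 on corn oil and 255, 236 and 490 on CCl4.

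The direction of miR-130a-3p turned with the scaling between arrays. Without normalization its log2 total signal was 8.27 ± 0.16 with corn oil and 8.98 ± 0.57 with CCl4 (SD, n = 3 livers per treatment), a difference of 0.71, while the median difference of all 166 miRNAs was 0.99. Without CCl4 replicate 3 the difference was 0.38 and the median difference 0.45. After quantile normalization, which gives each array the same distribution, its log2 signal was 8.93, 8.63 and 8.93 in the corn oil livers and 8.63, 8.71 and 8.15 in the CCl4 livers. The groups overlapped, and CCl4 replicate 3, highest before normalization, became the lowest. The means were 8.83 ± 0.17 and 8.50 ± 0.31 (SD, n = 3 each), a difference of -0.33 that was about as large as the SD of the CCl4 group. The median difference of all 166 miRNAs on this scale was -0.14. Groups that did not overlap, in either direction, made up 39.2% of the miRNAs after quantile normalization, and miR-130a-3p was not among them.

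Relative to the 75th percentile of each array, taken over the 166 miRNAs detected on all 6 arrays, miR-130a-3p was at 1.02, 0.84 and 1.02 in the corn oil livers and 0.60, 0.80 and 0.14 in the CCl4 livers, in log2 units. All CCl4 arrays were lower on this scale, as they were for 30.1% of the 166 miRNAs. The direction turned with the miRNAs that set the percentile. Over the detected miRNAs of each array, 186 to 334 in number, the percentile gave 1.34, 1.18 and 1.26 in the corn oil livers and 1.49, 1.56 and 1.79 in the CCl4 livers. The difference of the group means was 0.35, and the median difference of all miRNAs was 0.64. Without CCl4 replicate 3 these were 0.27 and 0.33. Below, the 75th percentile is that of the 166 miRNAs unless said otherwise. As a share of the summed detected signal, in contrast, miR-130a-3p took 0.186%, 0.161% and 0.196% in the corn oil livers and 0.238%, 0.222% and 0.252% in the CCl4 livers. Here all CCl4 arrays were higher, as they were for 47.6% of the miRNAs, and CCl4 replicate 3 lay close to the other CCl4 arrays. The difference between group means was 0.39 for this share and -0.44 for the percentile of the 166 miRNAs, with median differences of all miRNAs of 0.68 and -0.16. Without CCl4 replicate 3 the differences were 0.35 and -0.26, and the median differences 0.42 and -0.19.

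Measured against the median of all 166 miRNAs, the difference of miR-130a-3p was -0.19 after quantile normalization and -0.28 on the other 4 scales, which differ from each other only by a constant per array. Without CCl4 replicate 3 these values were -0.02 and -0.07. Most of the size was lost without that array. The sign against the median also depended on the order of steps, since with the detection filter applied only after quantile normalization the difference was 0.08 above the median. The quantile-normalized difference itself was -0.16 without CCl4 replicate 3.

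**Figure D2:**
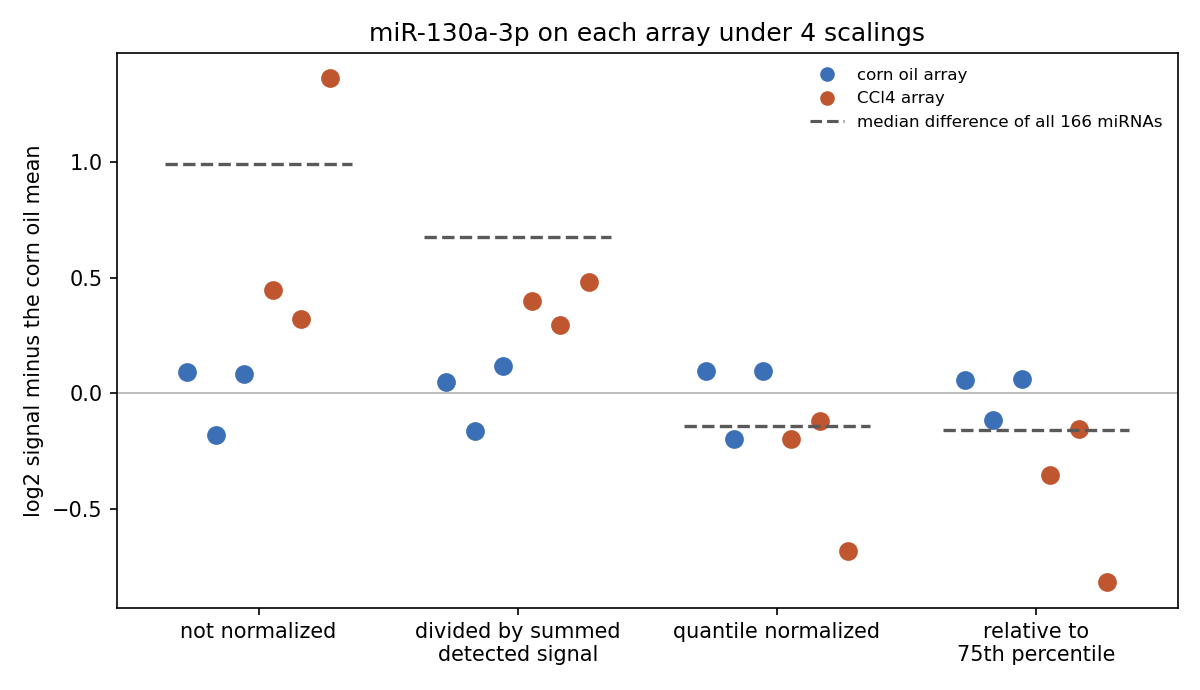
log2 signal of miR-130a-3p on each array, minus the mean of the corn oil arrays, under 4 scalings between arrays. Each point is 1 array and the dashed line is the median difference between groups over all 166 miRNAs; the CCl4 arrays lie above the corn oil arrays in the left pair of scalings, overlap them after quantile normalization and lie below them relative to the 75th percentile of the 166 miRNAs.

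In the limma fit over the 166 miRNAs, 20 miRNAs, or 12.0%, were called at an adjusted p (Benjamini-Hochberg) under 0.05 with more than a 2-fold change. Of these, 12 were higher and 8 lower in the CCl4 group. The split changed with the scaling, with 18 called and all 18 higher without normalization, and 11 higher and 5 lower relative to the 75th percentile. miR-130a-3p was the single family member that entered the fit, and its test is not given. The count of called miRNAs was 28 without CCl4 replicate 3, of which 13 were lower, but 7, 7 and 6 without corn oil replicates 1, 2 and 3, with 1 lower each time, and 5 without CCl4 replicate 1, with 0 lower.

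The miRNAs with the pattern most like that of miR-130a-3p were found among those detected on all 6 arrays, by the root mean square difference of quantile-normalized log2 signals, each centered on its own mean. The nearest was miR-20b-5p, at a distance of 0.04, followed by miR-22-3p (0.11), miR-19b-3p (0.12), miR-3098-5p (0.12) and miR-19a-3p (0.13). The median distance to all other miRNAs was 0.53. miR-20b-5p was at 5.57, 5.32 and 5.65 in the corn oil livers and 5.36, 5.48 and 4.86 in the CCl4 livers. As with miR-130a-3p, corn oil replicate 2 was the lowest corn oil array and CCl4 replicate 3 the lowest of all. The differences between the groups were -0.28, -0.38, -0.39, -0.15 and -0.34 in the order given. CCl4 replicate 3 was the lowest array for each of them, and the differences without it were not computed. Since these miRNAs were picked by their likeness to miR-130a-3p on these same arrays, the shared low arrays and differences below 0 are no separate result. The share of all miRNAs that were lowest on CCl4 replicate 3 was not computed. On CCl4 arrays 1 and 2 miR-3098-5p, at 3.81 and 3.83, was within its corn oil range of 3.73 to 3.86.

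miR-301a-3p was not detected in the corn oil group. Its total signal was 8.50, 5.72 and 80.5 on the CCl4 arrays, and on each corn oil array the software wrote 0.1, the value it gives an undetected miRNA. The sum of its probe signals, which the software records with or without detection, was 3.69, 3.33 and 4.16 in the corn oil livers and 11.04, 7.26 and 80.5 in the CCl4 livers. CCl4 arrays 1 and 2 were close above the corn oil arrays, and CCl4 replicate 3 was far above all others. The share of all miRNAs with sums in this order was not computed. Of the 40 spots, none was well above background on any corn oil array, and 50%, 17.5% and 100% were on the CCl4 arrays. The spots well above background on CCl4 arrays 1 and 2 were all of 1 of the 2 probes. That probe had 20, 7 and 20 of its 20 spots well above background on the CCl4 arrays, and the other had 0, 0 and 20. The signal of the other probe was 2.54 and 1.54 on CCl4 arrays 1 and 2, against 1.07, 0.74 and 1.33 on the corn oil arrays.

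No fold change is given for miR-301a-3p. It was well above background at over 50% of its spots on 1 of the 6 arrays, CCl4 replicate 3, and the bound computed for such a miRNA, relative to the 75th percentile, was under 1-fold. Without normalization the bound was 1.47-fold, and with signals divided by the summed detected signal 1.18-fold, and relative to the percentile of each array's own detected miRNAs 1.15-fold, but without CCl4 replicate 3 it was under 1-fold on each of these scales. Without CCl4 replicate 3 it was still detected on both remaining CCl4 arrays. There were 21 other miRNAs detected on the 3 CCl4 arrays alone, and those with the highest summed signal were miR-1196-5p, miR-193b-3p, miR-669n, miR-132-3p and miR-674-3p. miR-132-3p, at 17.0, 7.13 and 82.0 on the CCl4 arrays, had its highest signal on the same array as miR-301a-3p, and so did the other 4.

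miR-130b-3p, whose gene neighbors that of miR-301b, was detected on CCl4 replicate 3 alone, with a total signal of 20.01. The sum of its probe signals was -0.24, -0.30 and -0.18 in the corn oil livers and 4.54, 2.73 and 20.01 in the CCl4 livers. On CCl4 arrays 1 and 2 it was not detected, with 2.5% and 0% of the spots well above background. On CCl4 replicate 3 all 20 spots of 1 probe were well above background and none of the 20 spots of the other. Detection on this array alone was found for 8.90% of the 1247 miRNAs. There were 110 other such miRNAs, and the brightest were miR-127-3p, miR-375-3p, miR-10b-5p, miR-154-5p and miR-379-5p, with signals of 818, 769, 715, 418 and 338. Without CCl4 replicate 3 miR-130b-3p was detected on no array, and no fold is given.

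miR-721 differed from the other members in that its high array was a control. Its total signal was 136, 6.49 and 6.26 in the corn oil livers, and it was not detected on any CCl4 array. Corn oil replicate 1 was far above all other arrays. The sum of its probe signals was 136, 8.03 and 7.97 in the corn oil livers and 6.57, 4.25 and 7.20 in the CCl4 livers. Apart from corn oil replicate 1, the groups were close together, at 8.03 and 7.97 with corn oil and 4.25 to 7.20 with CCl4. The share of spots well above background was 100%, 12.5% and 10% in the corn oil livers and 2.5%, 0% and 0% in the CCl4 livers.

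The high signal of miR-721 on corn oil replicate 1 was present on each of its 4 probes and at each of its 40 spots. The probes gave between 31.8 and 36.1 on that array, between 1.54 and 2.32 on the other corn oil arrays, and between 0.57 and 2.22 on the CCl4 arrays. The background-subtracted spots ranged from 197 to 303 on corn oil replicate 1, and their medians were 14.3 and 13.5 on corn oil replicates 2 and 3. Spots of miR-721 were spread over the array, from row 8 to row 379 and from column 9 to column 146, and none was saturated. On the same array the summed detected signal was 177198, against 169669 and 167865 on corn oil replicates 2 and 3, and miR-130a-3p was at 330, against 273 and 328. Replicate numbers follow the labels of the scanner output. Over the 111 miRNAs of the deposited series values, the columns of corn oil replicates 1, 2 and 3 had the rank order of scanner arrays 2, 3 and 1, so which liver carried the high miR-721 signal is not settled, while its group is.

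A search added after these values were seen listed the miRNAs whose total signal on 1 corn oil array was over 4 times that on both others, with undetected signals set to the lowest detected signal of their array. Corn oil replicate 1 had 3 of them, miR-721, miR-3099-3p and miR-760-3p, and corn oil replicates 2 and 3 had 1 each, let-7f-1-3p and miR-429-3p. miR-3099-3p and miR-760-3p were detected on corn oil replicate 1 alone, with signals of 21.7 and 17.6. For miR-721, which was not well above background in the CCl4 group, the bound computed relative to the 75th percentile was 2.76-fold, higher with corn oil. It rests on corn oil replicate 1, since 1 of 3 corn oil arrays had over 50% of its spots well above background. The totals on corn oil replicates 2 and 3, 6.49 and 6.26, were under the floor used for the CCl4 group, which was 10.4 to 19.1 over the arrays. The value is therefore not read as a fold of the group. On this scale the bound was 2.23-fold without CCl4 replicate 3. Without corn oil replicate 1 the computed value was 1.01-fold. It is no bound, since no corn oil array left had over 50% of its spots well above background. The bound with all arrays was 1.24-fold without normalization, 1.54-fold with signals divided by the summed detected signal and 1.59-fold relative to the percentile of each array's own detected miRNAs. On these 3 scales it was under 1-fold without corn oil replicate 1.

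**Figure D3:**
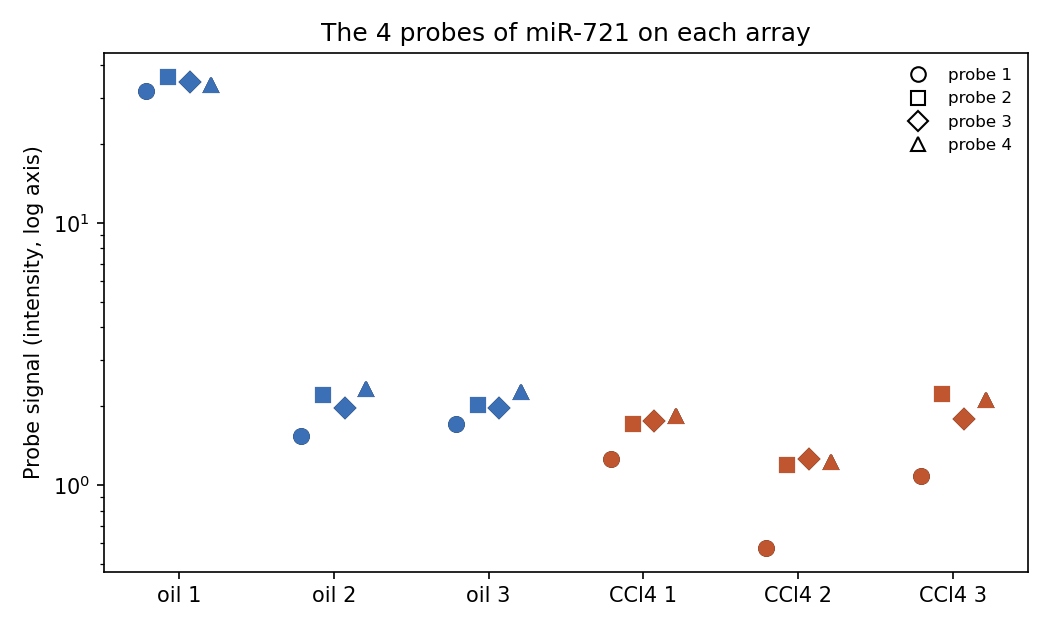
Signal (intensity, log axis) of the 4 probes of miR-721 on each of the 3 corn oil (oil) and 3 CCl4 arrays, 1 symbol per probe. All 4 probes lie between 31.8 and 36.1 on corn oil array 1 and between 0.57 and 2.32 on the other 5 arrays.

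The remaining members were not detected on any array. miR-301b-3p and the 5p arms miR-130a-5p, miR-130b-5p, miR-301a-5p and miR-301b-5p had sums of probe signals between -1.22 and 2.73, and no more than 2.5% of the spots of any of them stood well above background. The 5p arms of miR-301a and miR-301b shared a seed with each other, shown here because it is not that of the 3p arms, with bases 2 to 8 in capitals.
miR-301a-5p: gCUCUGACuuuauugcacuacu
miR-301b-5p: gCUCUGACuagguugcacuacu

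Outside the family's names, 3 further miRNAs, miR-130c, miR-6341 and miR-6389, also carried the miR-130 seed, and none of them was detected on any array. A further group, miR-148a-3p, miR-148b-3p and miR-152-3p, carries a seed that overlaps with it after a move by 1 position, as the capitals show.
miR-148a-3p: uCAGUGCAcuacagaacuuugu
miR-152-3p: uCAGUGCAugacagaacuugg

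All of these offset-seed miRNAs were detected on every array. miR-148a-3p was at 447, 378 and 418 in the corn oil livers and 402, 426 and 292 in the CCl4 livers, and CCl4 replicate 3 was its lowest array, unlike that of miR-130a-3p before normalization. miR-152-3p was at 37.8, 30.2 and 33.6 in the corn oil livers and 62.3, 48.5 and 343 in the CCl4 livers, with its highest signal on CCl4 replicate 3, as for miR-301a-3p and, before normalization, miR-130a-3p. miR-148b-3p was at 7.70, 7.19 and 7.39 with corn oil and at 10.4, 9.87 and 38.1 with CCl4, and since no array had more than 50% of its spots well above background, no difference is given for it. After quantile normalization the difference was -1.26 for miR-148a-3p and 0.18 for miR-152-3p, against -0.33 for miR-130a-3p. Without CCl4 replicate 3 these were -0.57, -0.24 and -0.16. With all arrays but no normalization the differences were -0.17, 1.59 and 0.71, and on that scale without CCl4 replicate 3 they were 0.002, 0.70 and 0.38.

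Marker lists of liver cell types, in total signals before normalization, were set beside the family members. The hepatocyte miRNAs (miR-122-5p, miR-192-5p and miR-194-5p, all 3 detected on every array) summed to 19957, 18530 and 20385 in the corn oil livers and 14521, 17268 and 2458 in the CCl4 livers, with miR-122-5p, the main miRNA of hepatocytes, the brightest of the list on each. The marker matched the label of liver tissue on 5 arrays and fell short of it on CCl4 replicate 3, where miR-130a-3p, miR-301a-3p and miR-130b-3p were highest on the same scale. There miR-122-5p was at 2158, against 13110 to 18345 on the other arrays. The endothelial miR-126-3p was at 3675 there, against 553 to 808 on the other arrays. The hepatocyte list took 0.777% of the detected signal on that array and 8.19% to 12.1% on the others.

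The endothelial miRNAs (miR-126-3p and miR-126-5p, both detected throughout) summed to 658, 563 and 677 in the corn oil livers and 824, 821 and 3732 in the CCl4 livers, with miR-126-3p the brighter. Their order over the arrays, with CCl4 replicate 3 far above the rest, was like that of miR-301a-3p. The mesenchymal and stellate cell list, led by miR-199a-3p, had 4, 4 and 5 of 6 miRNAs detected on corn oil and 6, 5 and 6 on CCl4, and it summed to 82.0, 67.2 and 109 and to 643, 255 and 1236. The sums of this list also had the same order over the arrays as the sums of probe signals of miR-301a-3p. The share of all miRNAs with such orders was not computed. The 75th percentile before normalization also ran from CCl4 replicate 3, at 723, over CCl4 replicates 1 and 2, at 278 and 221, to the corn oil arrays, at 152 to 163. No link of miR-301a-3p to these cell types is read from the order. Its undetected members were miR-145a-5p on every corn oil array and CCl4 array 2, and miR-214-3p on corn oil arrays 1 and 2.

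The immune list had 4, 3 and 3 of 6 miRNAs detected on corn oil and 6, 5 and 5 on CCl4, and it summed to 91.0, 77.7 and 90.7 and to 475, 346 and 457. miR-142-3p was its brightest miRNA on corn oil and miR-223-3p on CCl4, miR-150-5p and miR-155-5p were undetected on every corn oil array, miR-142-5p on corn oil arrays 2 and 3, and miR-155-5p also on CCl4 arrays 2 and 3. Unlike miR-130a-3p and miR-301a-3p, whose signals before normalization were highest on CCl4 replicate 3, the sum of this list was not, although miR-146a-5p, at 62.2, and miR-150-5p, at 26.2, were. The red cell miRNAs, miR-451a and miR-144-3p, 2 of a list of 3 that were on the array, summed to 466, 754 and 700 on corn oil and 730, 315 and 2135 on CCl4, with miR-451a the brighter. Before normalization none of the 5 lists was highest on corn oil replicate 1, where miR-721 was. As with miR-130a-3p, scaling changed some of these orders. After quantile normalization the red cell miR-451a was at 9.31, 9.91 and 9.78 with corn oil and 9.52, 8.37 and 9.31 with CCl4. The difference was -0.60, against 0.32 without normalization. Without CCl4 replicate 3 both differences were below 0, at -0.72 and -0.40. After quantile normalization miR-142-3p, 1 of the 3 immune miRNAs detected on every array, was lowest on CCl4 replicate 3. It was at 5.59 there, against 5.83 to 7.14 on the other arrays. On that array miR-223-3p was at 5.83 and miR-146a-5p at 4.57, within their corn oil ranges of 5.65 to 5.92 and 4.47 to 4.64. Relative to the 75th percentile, the summed endothelial list on CCl4 replicate 3 was still the highest, at 5.16 against 2.97 to 4.19 on the other arrays, and the hepatocyte list the lowest, at 3.40 against 52.3 to 126. Both also held with the percentile of each array's own detected miRNAs. The mesenchymal and stellate list was highest on CCl4 replicate 1, at 2.32, and the red cell list on corn oil replicate 2, at 4.95, but with the arrays' own percentile both were highest on CCl4 replicate 3, at 5.35 and 9.25. The part of cell composition and of CCl4 replicate 3 as a whole in the family's values was not tested.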

How the data were processed

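Total liver RNA of 6 mice was measured on single-color miRNA arrays. In the scanner output the authors deposited, extracted with Agilent Feature Extraction 11.0.1.1, total, probe and spot signals are intensity values with the background subtracted and no normalization between arrays, and other columns are detection and background flags. The deposited series values are intensity values of 111 miRNAs, quantile normalized by the authors.

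Family members were taken by name. The members, the lists and the rule for named miRNAs (members, seed relatives, nearest patterns, marker lists, shared detection patterns) were chosen with earlier results of these data known. For miRNAs flagged as detected on all 6 arrays, log2 total signals were quantile normalized for a fit with limma 3.58.1 in R 4.3.3, tested on simulated data. Calls needed an adjusted p (Benjamini-Hochberg) under 0.05 and a fold over 2. The bound sets the brighter group's mean log2 signal against the dimmer group's, both relative to the 75th percentile of the miRNAs detected on all 6 arrays. The signal was the total where the miRNA was detected and the sum of its probe signals where it was not. For the dimmer group the larger of this signal and a floor was taken. The floor was the lowest value, on the same array, among detected miRNAs with over 50% of spots well above background. Division by the summed detected signal, the percentile of each array's own detected miRNAs, the detection counts with 1 array left out (but for CCl4 replicate 3), the search over single corn oil arrays, marker lists on other scales and the bounds without 1 array or on other scales were added after seeing the data. Sequences are from RefSeq, with a match for 8 of the 9 members. Software was Python 3.11.15, pandas 2.3.3, numpy 2.4.6 and matplotlib 3.10.9.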

Additional observations from a re-analysis of the deposited data

How the results depend on the processing

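The log2 difference of miR-130a-3p, -0.33 after quantile normalization, moved by more than the spread between replicates under 3 alternatives, where it also changed sign. It was 0.71 without normalization and, in alternatives chosen after seeing the data, 0.39 with signals divided by the summed detected signal and 0.35 with the 75th percentile of each array's own detected miRNAs. Under these alternatives the difference without CCl4 replicate 3 was 0.38, 0.35 and 0.27. Under the other alternatives it remained below 0, and with 1 array left out it was -0.44 to -0.16. No such difference is given for miR-301a-3p, which was not detected in the corn oil group, and its bound was under or over 1-fold depending on the scale. The count of 20 called miRNAs, 12 higher and 8 lower, was 32 with miRNAs detected in at least 1 group, 16 of them lower, and 12 in the deposited values, 5 of them lower. It was 6 without a filter and 4 with normexp background correction, with 0 lower in both. Without normalization it was 18, all 18 higher, and with signals divided by the summed detected signal 29, all 29 higher, and with the arrays' own percentile 26, all 26 higher. With 1 array left out it was 5 to 28. With the replicate number as a block it was 6, with 0 lower, and miR-130a-3p stayed at -0.33. Deviations of same-numbered arrays correlated at -0.18, 0.11 and 0.03, so the numbers were not taken to pair the arrays. The deposited corn oil columns rank like scanner arrays 2, 3 and 1, which leaves unsettled which livers the block joins. The 2 members detected on every array of each group became 1 when over 50% of the spots had to be well above background, for the corn oil group and for the CCl4 group, and stayed 2 with any 1 array of the group left out. The cause of these shifts was not tested. Signal over background limits all members but miR-130a-3p.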
